A study of Mus musculus with 8 samples.

Results

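The glycolysis and hypoxia genes described here are 33 mouse genes chosen by name, of 27405 genes listed in the libraries, and all 33 were listed in each of the 4 libraries. They comprise 11 genes of glucose uptake and upper glycolysis (Slc2a1, Hk1, Hk2, Gpi1, Pfkl, Pfkm, Pfkp, Pfkfb3, Pfkfb4, Aldoa and Tpi1) and 5 of lower glycolysis (Gapdh, Pgk1, Pgam1, Eno1 and Pkm). A further 4 act on lactate and pyruvate (Ldha, Pdk1, Slc16a1 and Slc16a3), 3 act in oxygen sensing (Hif1a, Egln1 and Egln3) and 10 are other hypoxia targets (Bnip3, Bnip3l, Ero1a, Hilpda, Ndrg1, P4ha1, Adm, Ankrd37, Mxi1 and Ak4). The samples were immune cells (CD45+) sorted from tumours of the murine colon carcinoma line MC38 and profiled by droplet RNA sequencing. The host mice were wild-type, and the groups were control and LNP-Sirpa, with 2 libraries each, all of 1 batch. LNP-Sirpa is the label of a treatment aimed at SIRPα, the inhibitory phagocyte receptor that binds CD47, and by its title the study concerns the effect on tumour macrophages and antitumour immunity. What the control mice were given is not stated in the labels, nor is it stated that replicates came from separate mice, so p-values measure the spread between these libraries, which may be technical.

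Glycolysis splits glucose into pyruvate with a small yield of ATP and needs no oxygen. When oxygen is short, the prolyl hydroxylases no longer mark HIF-1α for destruction, and this factor raises transcription of glucose transporters, glycolytic enzymes, lactate exporters and a set of other targets. Tumour macrophages in poorly perfused zones are known for such a programme, and activated myeloid cells can also stabilise HIF-1α without lack of oxygen. Hif1a mRNA itself is largely controlled separately from the protein.

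The libraries held 68654004 to 90789729 unique molecular identifiers (UMIs, counted molecules) and 7504 to 10876 cells after filtering. Cells were placed in types by UMIs of marker lists that contained none of the 33 genes, and counts were summed per library and type. Levels are CPM, the count scaled to a fixed total of 1000000 UMIs in that sum. They are compared for the same gene between sums, and not between genes. Macrophages, defined by C1qa, Apoe and similar markers, numbered 4547, 6954, 3056 and 3536 cells in control replicates 1 and 2 and LNP-Sirpa replicates 1 and 2. Monocytes, defined by Ly6c2, Plac8 and similar markers, numbered 80, 62, 586 and 483 in the same order, which is the order of every run of 4 values that follows. Summed epithelial markers lay below 1 CPM in macrophages of all libraries. No doublet caller was applied. Between 16.4% and 36.0% of a library's cells fitted no type.

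Across the 12 cell types with at least 20 cells in every library, neutrophils had the highest mean level for 8 members, phagocytes with few macrophage or monocyte markers (low-marker phagocytes) for 7, and monocytes for 5. The range of the highest type overlapped that of the next type for every member except Pfkm, Pfkp and Slc16a3. Neutrophil sums of the control libraries held only 46853 and 54444 UMIs. Macrophages had the highest mean for Pdk1 alone, the kinase that keeps pyruvate out of mitochondria, and its range overlapped that of low-marker phagocytes. Fibroblast-like cells were present although the sort was for CD45+ cells. Slc16a3, the lactate exporter induced by hypoxia, reached a mean of 515 CPM over neutrophil libraries (range 312 to 619), above the 251 to 295 CPM of monocytes, and had its lowest mean, 34.5 CPM, in fibroblast-like cells. Hilpda, a lipid droplet protein that inhibits fat breakdown, followed the same order at the top, with a mean of 859 CPM in neutrophils and 411 CPM in monocytes, but these ranges overlapped (320 to 1397 and 106 to 692 CPM). Egln3, the hypoxia-inducible prolyl hydroxylase, had means of 156 CPM in neutrophils and 53.3 CPM in low-marker phagocytes, with neutrophil libraries spread from 36.7 to 256 CPM.

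**Figure D1:**
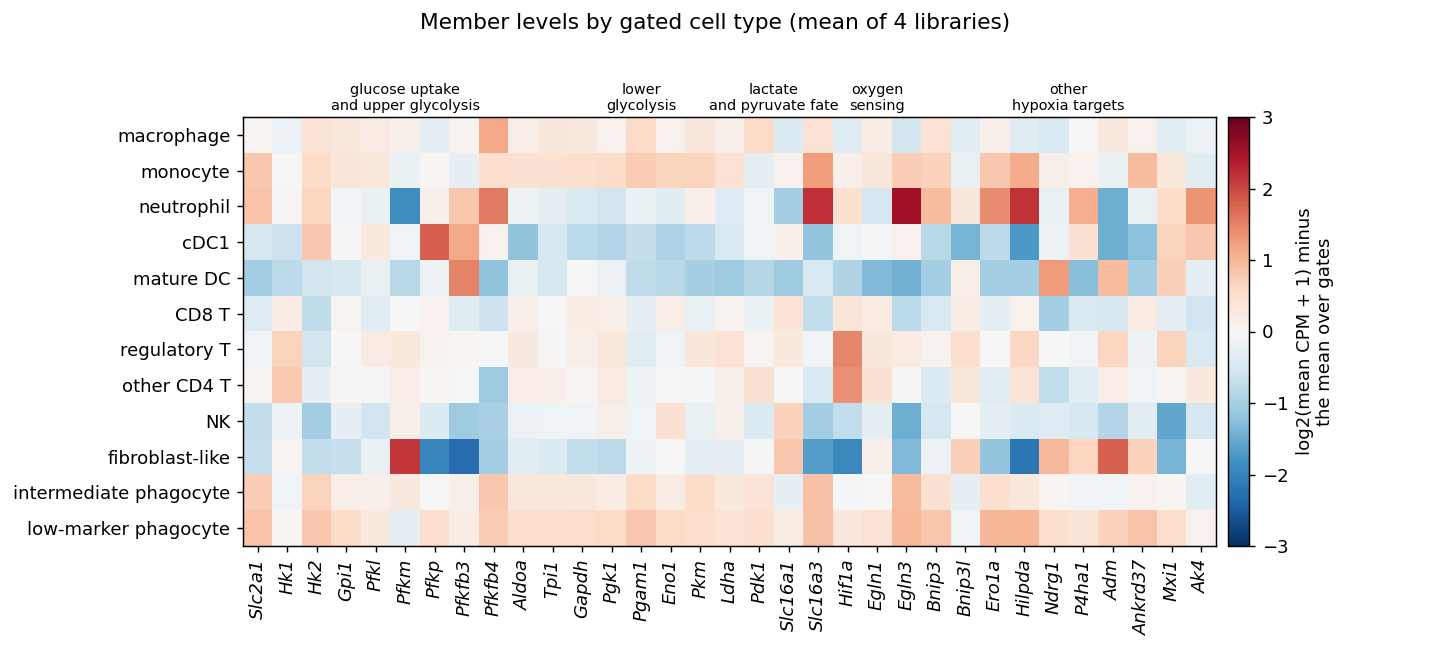
Columns are the 33 members by role, rows the 12 cell types with at least 20 cells per library, and colour shows log2(mean CPM + 1) over 4 libraries minus the mean over cell types for that member. Neutrophils stand out for Slc16a3, Egln3 and Hilpda, type 1 conventional dendritic cells (cDC1) for Pfkp and fibroblast-like cells for Pfkm.

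Some members were led by cells other than phagocytes. Hif1a, the oxygen-regulated subunit of HIF-1, had its highest means in regulatory T cells (356 CPM, range 285 to 473) and other CD4 T cells (336 CPM, range 278 to 435), whose ranges overlapped, and its level in macrophages was 98.9 CPM (range 52.4 to 158). Pfkp, the platelet form of phosphofructokinase, reached a mean of 736 CPM in cDC1 (range 518 to 883), with no overlap with the next type, low-marker phagocytes (251 to 387 CPM). Pfkm, the muscle form, was at 26.7 CPM in fibroblast-like cells (range 17.8 to 32.98) and at 6.84 CPM or less on average in the other 11 types. Pfkfb3, which makes the activator of phosphofructokinase, had its highest mean in mature dendritic cells (154 CPM, range 124 to 180), overlapping cDC1 (79.7 to 188 CPM). Ndrg1, a hypoxia and stress response gene, was also highest there, with 307 CPM against 250 CPM in fibroblast-like cells and overlapping ranges.

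Within the phagocytes, monocytes were above macrophages of the same library in all 4 libraries for 15 of 33 members, and the fitted difference was negative (lower in macrophages) for 29. The count by library was not made over all genes. In edgeR's quasi-likelihood test with the library as a block, 14 of 33 members were lower (9.35% of all 12978 genes tested were called lower) and 1 was higher (10.2% of all genes). The median log2 difference over members was −0.38, against 0.06 over all genes. Hilpda was at 61.1, 126, 137 and 264 CPM in macrophages and at 106, 295, 550 and 692 CPM in monocytes. Monocytes were above macrophages in all 4 libraries, and the log2 difference, macrophages minus monocytes, was −1.52 (SE 0.18, adjusted p = 4.236e-05). Slc16a3 was at 145, 116, 131 and 209 CPM in macrophages and 256, 263, 295 and 251 CPM in monocytes, so the types did not overlap (log2 −0.95, SE 0.15, adjusted p = 9.085e-05).

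The glucose transporter Slc2a1 was at 68.03, 88.6, 66.9 and 125 CPM in macrophages and 116, 116, 148 and 193 CPM in monocytes, and was lower in macrophages by log2 −0.88 (SE 0.15, adjusted p = 1.704e-05). Ero1a, an oxidase for disulfide bonds in the endoplasmic reticulum, and Ndrg1 were lower by log2 −0.79 (SE 0.16, adjusted p = 3.161e-04) and −0.75 (SE 0.14, adjusted p = 1.428e-04). Of the 5 lower glycolysis genes, 4 were lower in macrophages, and Gapdh missed the threshold at log2 −0.28 (adjusted p = 0.0558). Pdk1 was higher in macrophages, at 33.9, 31.2, 27.6 and 36.5 CPM against 22.2, 6.42, 21.8 and 20.3 CPM (log2 0.57, SE 0.20, adjusted p = 0.0415), but missed the threshold without control replicate 2 or LNP-Sirpa replicate 2. In the control libraries alone 7 members were called lower (4.39% of all genes in that fit), and in the LNP-Sirpa libraries alone 9 (8.31%).

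Neutrophils, of which the control libraries held only 21 and 20 cells, differed from macrophages for 9 members. They had 7 members above macrophages (9.42% of all 12586 genes were called higher) and 2 below (12.6% called lower). Those above were 4 other hypoxia targets, Egln3, Slc16a3 and Slc2a1, and those below were Gapdh and Pgam1. Egln3 was at 256, 36.7, 119 and 213 CPM in neutrophils and 11.4, 20.3, 9.19 and 30.0 CPM in macrophages, a log2 difference of 3.16 (SE 0.32, adjusted p = 1.378e-20). Its neutrophil libraries were all above the macrophage libraries, although the 36.7 CPM rested on 2 UMIs. In neutrophils Hilpda was at 320, 955, 763 and 1397 CPM and Slc16a3 at 619, 312, 540 and 588 CPM, above the macrophages in every library. Ero1a was at 107, 36.7, 198 and 227 CPM, with control replicate 2 below its macrophages. P4ha1 was at 256, 91.8, 71.8 and 268 CPM against 75.2, 88.1, 82.4 and 79.9 CPM in macrophages, so its types overlapped. Hilpda (log2 2.43, SE 0.31, adjusted p = 3.402e-13), Slc16a3 (log2 1.65, SE 0.30, adjusted p = 1.231e-06), Ero1a (log2 1.30, SE 0.31, adjusted p = 4.267e-04) and P4ha1, a collagen prolyl hydroxylase (log2 0.82, SE 0.30, adjusted p = 0.0332), were also higher. The Ero1a and Gapdh calls were lost without either LNP-Sirpa library, and that of P4ha1 was lost without control replicate 1 or either LNP-Sirpa library.

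Gapdh, the step that yields NADH, was lower in neutrophils at 2241, 1818, 2283 and 3229 CPM against 3568, 3458, 3475 and 5342 CPM (log2 −0.88, SE 0.30, adjusted p = 0.0183). Pgam1, the mutase of lower glycolysis, was lower by log2 −0.88 (SE 0.31, adjusted p = 0.0247). The Pgam1 call was lost without control replicate 1 or LNP-Sirpa replicate 1. Only 3 members were called higher without LNP-Sirpa replicate 1 (4.79% of all genes in that fit) or replicate 2 (4.87%), and 0 in the control libraries alone (0.352%). The macrophage markers in neutrophils summed to 2437 to 5033 CPM, against 18508 to 25859 CPM in macrophages, and their part in the result was not tested.

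CD8 T cells and natural killer (NK) cells were below macrophages for many members. In CD8 T cells 15 of 33 members were lower (28.6% of all 13443 genes) and 5 higher (23.8%), and in NK cells 19 were lower (24.3% of all 13439 genes) and 2 higher (21.3%). Both cell types had less Pfkfb4 (log2 −1.99 in CD8 T cells, −2.10 in NK cells), Hk2, the inducible hexokinase (−1.27 and −1.46), and Slc16a3 (−1.27 and −1.51). Slc16a1, the other lactate transporter measured, was higher in both, by log2 0.91 and 1.22. Hif1a was higher in CD8 T cells (log2 0.72, SE 0.20, adjusted p = 0.02135). Without control replicate 2 only 1 member was called higher in CD8 T cells (19.1% of all genes in that fit), and without control replicate 1 only 2 were (23.7%).

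In macrophages, levels of most members were higher on average with LNP-Sirpa, but no member passed the treatment test. Of 33 members, 29 had a positive log2 fold change, with a median of 0.42 against −0.00 over all 15341 genes. With edgeR, 0 members passed an adjusted p of 0.05 (0.0717% of all genes were called in either direction). By edgeR 5 had an unadjusted p under 0.05, and DESeq2 called 3 (Hif1a, Pfkp and Ak4). Shares of all genes for these 2 counts are not given here, so they show no shift particular to the members. The 2 LNP-Sirpa libraries differed from each other: replicate 2 was above both controls for 28 members, while replicate 1 was above both for 13 and below both for 13. These counts per replicate were not made over all genes, so they do not show a shift particular to the members.

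Hif1a was at 52.4 and 64.5 CPM in the controls and at 158 and 121 CPM in the LNP-Sirpa libraries. The groups did not overlap, and the log2 fold change was 1.38 (SE 0.19, adjusted p = 0.0590). Pfkp did not overlap either, at 121, 133, 243 and 213 CPM (log2 0.98, SE 0.18, adjusted p = 0.0778). These were among the 11 members for which both LNP-Sirpa libraries lay above both controls (13.2% of all genes tested), and Pfkm was the 1 member below (35.3%). Ero1a was at 39.4, 50.5, 62.8 and 84.5 CPM (log2 0.88, SE 0.27, adjusted p = 0.200). Hilpda was at 61.1, 126, 137 and 264 CPM, so that LNP-Sirpa replicate 1 lay close to control replicate 2 (log2 1.27, SE 0.51, adjusted p = 0.313). Ndrg1 was at 63.8, 91.8, 90.5 and 123 CPM, with overlapping groups (log2 0.62, SE 0.30, adjusted p = 0.395).

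For several members of glycolysis and lactate handling, unlike Pfkp, LNP-Sirpa replicate 2 was the highest library and replicate 1 lay nearer the controls. Gapdh was at 3568, 3458, 3475 and 5342 CPM, Pgk1, the first ATP-yielding step, at 455, 414, 462 and 791 CPM, and Pkm, the last step, at 1076, 994, 1212 and 1525 CPM. Aldoa, which splits fructose bisphosphate, was at 1014, 1016, 1132 and 1664 CPM. Slc2a1 was at 68.03, 88.6, 66.9 and 125 CPM. Ldha, which makes lactate from pyruvate, was at 850, 824, 807 and 1091 CPM, and Slc16a3 at 145, 116, 131 and 209 CPM. For these 7 genes log2 fold changes lay between 0.35 and 0.71 with adjusted p between 0.395 and 0.636.

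Pdk1 (27.6 and 36.5 CPM with LNP-Sirpa, 33.9 and 31.2 CPM in controls) and Egln1, the main oxygen sensor of the HIF pathway (48.3 and 56.9 against 51.8 and 48.9 CPM), overlapped between groups. Without LNP-Sirpa replicate 1, 15 members were called higher (3.17% of all genes in that fit), including Pgk1, Aldoa, Gapdh, Eno1, Pkm, Pgam1, Tpi1, Gpi1 and Ldha, and the member median was 0.76. Without LNP-Sirpa replicate 2, 2 were higher (Hif1a and Pfkp, 3.42% of all genes) and 1 lower (Ankrd37, 0.891%), with a median of 0.02. In both fits the LNP-Sirpa group is 1 library, which is assumed to vary as the 2 controls do. The glycolytic enzymes have near-identical pseudogenes and paralogs in the genome, so their counts are uncertain where reads were shared.

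**Figure D2:**
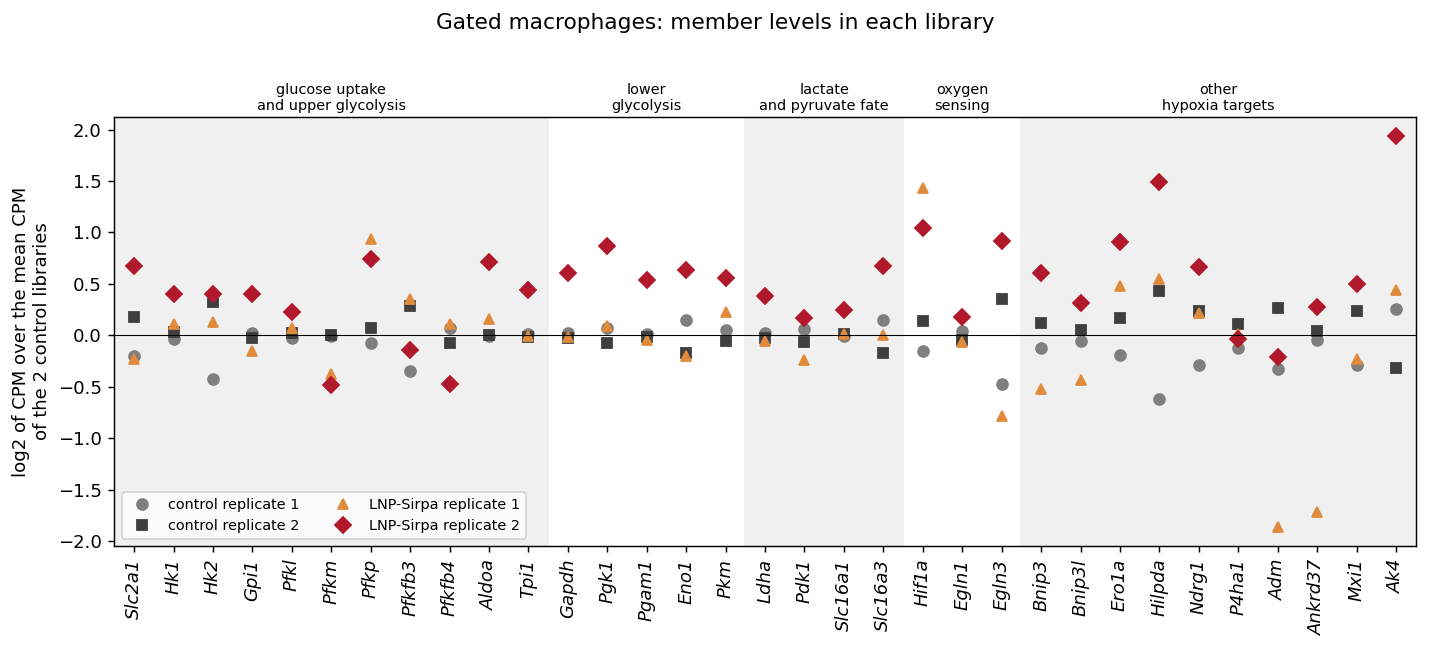
Each point is 1 library's CPM of a member in macrophages, as log2 over the mean CPM of the 2 control libraries; members are ordered by role. LNP-Sirpa replicate 2 lies above both controls for 28 of 33 members, while LNP-Sirpa replicate 1 does so for 13. These counts were not made over all genes.

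The make-up of the macrophages also differed between the libraries. Macrophages with high counts of Arg1, Spp1, Inhba, Thbs1 and Mmp12 and low counts of Folr2, Selenop and related genes (called Arg1-Spp1 macrophages here) were 6.14% (95% Wilson interval 5.47 to 6.87), 7.51% (6.91 to 8.15), 13.5% (12.3 to 14.8) and 57.8% (56.2 to 59.4) of macrophages. Macrophages with the opposite pattern (Folr2-Selenop macrophages, from genes typical of resident macrophages) were 53.8% (52.4 to 55.3), 45.2% (44.0 to 46.3), 16.3% (15.03 to 17.6) and 1.44% (1.10 to 1.89). The remaining macrophages of each library were in neither state. LNP-Sirpa replicate 2, with the highest level of several glycolytic genes, also had the largest Arg1-Spp1 share. The part of these shares in the treatment values was not tested. For either share the exact two-sided permutation p was 0.33, the smallest that 2 against 2 libraries allow. In macrophages the 7 monocyte markers summed to 71.7, 61.1, 321 and 201 CPM and the 8 neutrophil markers to 56.7, 71.1, 205 and 121 CPM, none of them at 0, and their part in the treatment values was not tested.

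Within each library, Arg1-Spp1 macrophages had more transcripts of nearly all members than Folr2-Selenop macrophages. In edgeR's test with the library as a block, 30 of the 32 members tested were higher (18.2% of all 11051 genes) and Pfkfb4 was lower (16.3% of all genes). The median log2 difference of the members was 1.33, against −0.02 over all genes, and 28 of all 33 members were higher in 4 of 4 libraries. The count by library was not made over all genes. Arg1 is itself known to respond to HIF. With Arg1 left out of the marker list, an alternative added after the data were seen, 28 of 33 members were higher and 1 lower. The share of all genes called in that fit is not given here, so these counts show no shift particular to the members. The marker list without Arg1 still held Spp1, Inhba, Thbs1 and Mmp12, whose own response to hypoxia was not tested.

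Hilpda was at 217, 428, 404 and 349 CPM in Arg1-Spp1 and at 28.3, 53.2, 35.0 and 37.7 CPM in Folr2-Selenop macrophages, a log2 difference of 3.42 (SE 0.10, adjusted p = 1.54e-14). Egln3 was at 29.8, 81.0, 28.7 and 41.0 CPM against 6.73, 5.45, 3.50 and 10.3 CPM (log2 3.39, SE 0.35, adjusted p = 3.379e-04). The 2 states did not overlap for either gene. Ak4, a mitochondrial adenylate kinase induced by hypoxia, was at 8.74, 6.30, 7.72 and 11.8 CPM against 1.71, 0.69, 1.91 and 0.00 CPM, the last from 51 cells (log2 2.92, SE 0.30, adjusted p = 2.515e-07).

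Ankrd37, an ankyrin repeat gene used as a hypoxia marker, was at 82.5, 92.6, 19.2 and 54.8 CPM against 18.5, 18.2, 3.82 and 17.1 CPM (log2 2.54, SE 0.13, adjusted p = 7.761e-12). It was higher in the Arg1-Spp1 state in all 4 libraries, although both states were low in LNP-Sirpa replicate 1. Ero1a was at 98.7, 126, 132 and 102 CPM against 23.4, 28.7, 28.9 and 34.3 CPM (log2 2.40, SE 0.11, adjusted p = 1.4e-12). By role, 9 of 11 genes of glucose uptake and upper glycolysis, 5 of 5 of lower glycolysis, 4 of 4 of lactate and pyruvate fate, 3 of 3 of oxygen sensing and 9 of the 9 other hypoxia targets tested were higher.

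The median log2 difference was 1.09 for upper glycolysis, 1.502 for lower glycolysis and 2.38 for the other hypoxia targets. Adm, the vasodilator peptide adrenomedullin, did not pass the filter on low counts. Pfkfb4 was at 28.5, 24.1, 28.5 and 24.8 CPM in Arg1-Spp1 and 41.7, 39.2, 47.7 and 34.3 CPM in Folr2-Selenop macrophages (log2 −0.35, SE 0.12, adjusted p = 0.0270); the call was lost when control replicate 1, control replicate 2 or LNP-Sirpa replicate 1 was left out. Pfkm differed by log2 −0.19 (adjusted p = 0.612). With library sizes in place of trimmed mean (TMM) scaling the median of all genes fell by 0.30, 15.8% of all called genes were higher in place of 52.8%, and 28 members were higher and 1 lower.

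**Figure D3:**
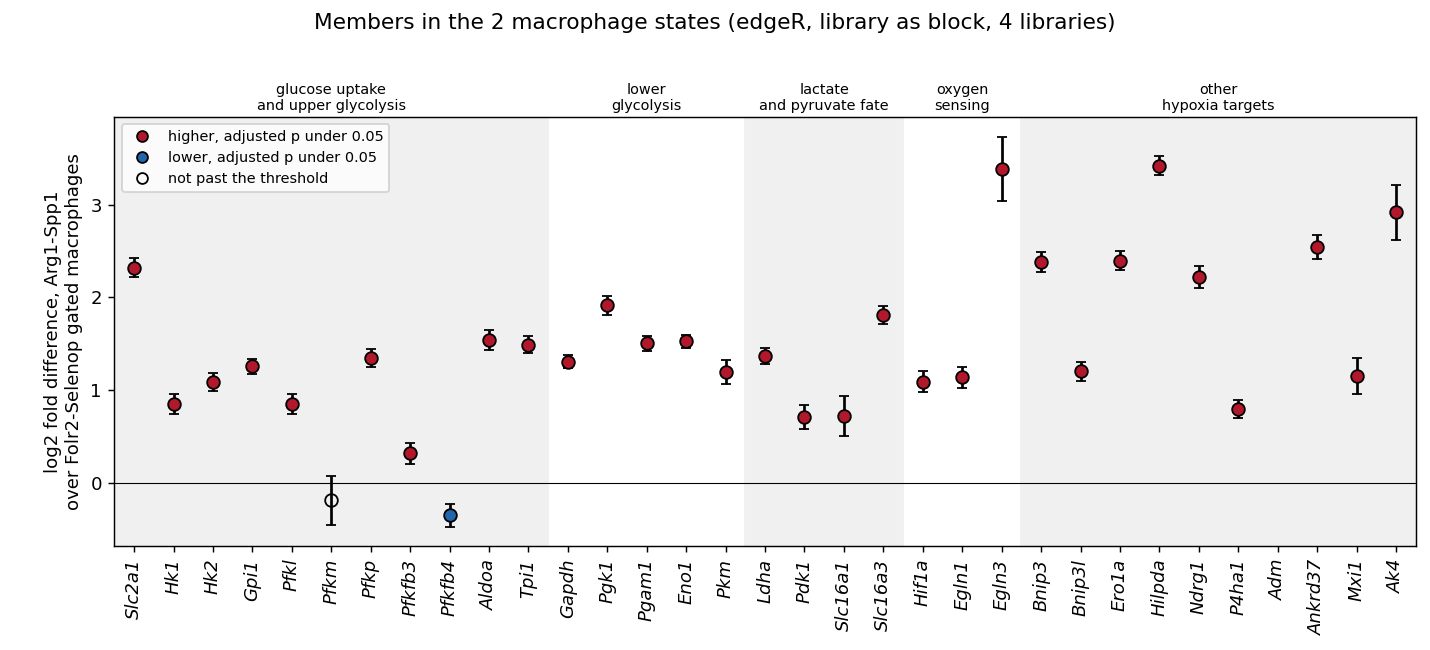
Points are log2 differences of members (Arg1-Spp1 over Folr2-Selenop macrophages, library as block), with standard errors as bars and members ordered by role. All members tested lie above 0 except Pfkm and Pfkfb4, and Hilpda and Egln3 exceed log2 3.

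When the treatment was tested inside each macrophage state, no glycolytic enzyme was called higher in either state by edgeR with all 4 libraries. None was called over all macrophages either. In Arg1-Spp1 macrophages the member median was −0.15 (0.00 over all 10882 genes), 15 of 33 members were below both controls in both LNP-Sirpa libraries (21.2% of all genes tested) and 3 above (22.6%), Pfkp among the latter. No member was called higher (0.423% of all genes), where DESeq2 called 1 and edgeR had 1 at an unadjusted p under 0.05. Shares of all genes for the DESeq2 and unadjusted counts are not given here. The 1 member that passed was Adm, which fell (0.0919% of all genes were called lower), from 9.06 and 15.3 CPM to 2.13 and 2.73 CPM (log2 −2.26, SE 0.39, adjusted p = 0.0475). Gapdh was at 5911, 6114, 4769 and 5906 CPM and Pgk1 at 996, 952, 755 and 920 CPM in this state. LNP-Sirpa replicate 2, which had the highest level of both genes over all macrophages, did not exceed the controls here.

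In Folr2-Selenop macrophages the member median was 0.03 (−0.03 over all 12911 genes), and LNP-Sirpa replicate 2 contributed 51 cells. Both LNP-Sirpa libraries were above both controls for 7 members (19.2% of all genes tested), Hk1, Pfkl, Pfkp, Aldoa, Pkm, Hif1a and Ero1a, and below for 5 (22.8%). Hif1a rose (2.52% of all genes were called higher) from 47.8 and 50.8 CPM to 106 and 54.8 CPM (log2 0.86, SE 0.22, adjusted p = 0.0287). Ankrd37 fell (0.48% of all genes were called lower) from 18.5 and 18.2 CPM to 3.82 and 17.1 CPM (log2 −1.84, SE 0.42, adjusted p = 0.0145). Without LNP-Sirpa replicate 1 the Hif1a value was log2 0.14 and that of Ankrd37 −0.11, and both calls were also lost without either control library. The Adm call was lost without control replicate 2 or LNP-Sirpa replicate 1.

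In monocytes, 5 of the 31 members tested rose with LNP-Sirpa (2.0% of all 8291 genes were called higher). They were 2 of the 3 oxygen-sensing genes, Egln3 and Hif1a, 2 other hypoxia targets, Mxi1 and Ero1a, and the inducible hexokinase Hk2. No member was called lower by edgeR or DESeq2 (1.1% of all genes by edgeR), and no member had a lower level at an unadjusted p under 0.05. The member median was 0.50, against −0.01 over all genes, and for 21 of 33 members both LNP-Sirpa libraries lay above both controls. Of the 31 members tested this held for 20, and of all genes tested for 22.2%.

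Egln3 was at 24.6 and 12.8 CPM in control monocytes, from 10 and 4 UMIs, and at 71.1 and 72.4 CPM with LNP-Sirpa, from 255 and 178 UMIs. Its log2 fold change was 1.91 (SE 0.38, adjusted p = 0.0114). Hif1a was at 88.7, 80.3, 248 and 159 CPM (log2 1.29, SE 0.27, adjusted p = 0.0159). Mxi1, a MYC antagonist of the MAX network, was at 86.2, 80.3, 186 and 163 CPM (log2 1.09, SE 0.25, adjusted p = 0.0238). Ero1a was at 66.5, 54.6, 131 and 119 CPM (log2 1.06, SE 0.27, adjusted p = 0.0458), and Hk2 at 150, 183, 309 and 291 CPM (log2 0.88, SE 0.23, adjusted p = 0.0458). For all 5 genes both LNP-Sirpa libraries lay above both controls, and for Hif1a replicate 1 was well above replicate 2.

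**Figure D4:**
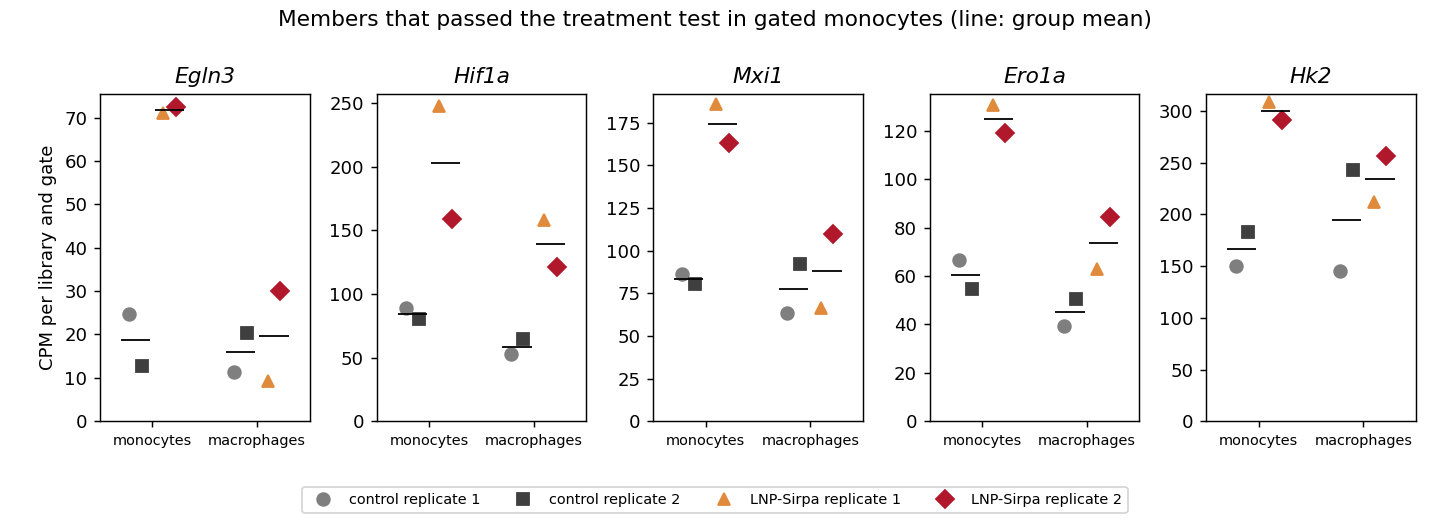
Points are CPM of the 5 members that passed the treatment test in monocytes, for each library in monocytes and in macrophages; lines mark group means. In monocytes both LNP-Sirpa libraries lie above both controls for all 5, while in macrophages this holds for Hif1a and Ero1a.

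Other members had large but uncertain differences in monocytes. Hilpda was at 106, 295, 550 and 692 CPM, with no overlap but a wide gap between the controls (log2 1.68, SE 0.44, adjusted p = 0.123). Pfkfb3 was at 44.3, 19.3, 74.5 and 46.8 CPM (log2 0.91, SE 0.39, adjusted p = 0.276) and Slc2a1 at 116, 116, 148 and 193 CPM (log2 0.59, SE 0.25, adjusted p = 0.267). Gapdh was at 3354, 3863, 4989 and 5684 CPM (log2 0.59, SE 0.19, adjusted p = 0.110), Pgk1 at 562, 633, 776 and 895 CPM (log2 0.51, adjusted p = 0.223) and Pgam1 at 598, 597, 690 and 747 CPM (log2 0.29, adjusted p = 0.532).

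Ldha was at 1007, 1175, 1023 and 1167 CPM (log2 0.03) and Slc16a3 at 256, 263, 295 and 251 CPM (log2 0.10), so the groups overlapped. Egln1 was at 51.7, 67.4, 49.1 and 55.3 CPM (log2 −0.15) and overlapped as well, and its sign turned under 6 of 15 alternatives, up to log2 1.16 with thinned cells. Ak4 had 0 UMIs in control monocytes and 45 with LNP-Sirpa, at least 1.78-fold higher against a floor of 3 counts over the control group. With Ak4 at that bound, the median of the 9 other hypoxia targets tested was 0.83. The monocyte calls rested on 80 and 62 control cells. DESeq2 called 3 members (Egln3, Hilpda and Hif1a), and its share of all genes is not given here. Mxi1 and Ero1a were called without LNP-Sirpa replicate 2 but not when any other library was left out, and Hk2 was not called without control replicate 1 or LNP-Sirpa replicate 1. Hif1a was not called without LNP-Sirpa replicate 1, and Egln3 was called whichever library was left out. With thinned cells, however, Egln3 was not called (log2 1.89, edgeR adjusted p = 0.184). Of 15 alternatives, the call was lost in 10 for Ero1a, 7 for Hk2, 6 for Mxi1 and 1 each for Egln3 and Hif1a. Stricter marker thresholds and thinned cells were among the losses for Ero1a, Hk2 and Mxi1. Hilpda, not called with all 4 libraries, was called in each of the 4 fits that left out 1 library, at log2 1.11 to 2.63. Those fits called between 3 and 6 members, with 3 without control replicate 1 (1.39% of all genes in that fit called higher). Each leaves 1 group with a single library, assumed to vary like the other group.

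Other gene lists moved with the monocyte result. The 5 Arg1-Spp1 state genes summed to 3719 and 4755 CPM in control monocytes and to 11073 and 11109 CPM with LNP-Sirpa. The 8 neutrophil markers summed to 143 and 167 CPM and to 395 and 308 CPM, with Retnlg and Cxcr2 at 0 in both controls, S100a9 and Mmp9 at 0 in control replicate 2, and none at 0 with LNP-Sirpa. The 7 fibroblast markers summed to 135 and 128 CPM in controls and to 47.7 and 12.2 CPM with LNP-Sirpa, with Lum at 0 in all 4 libraries. The 6 Folr2-Selenop state genes summed to 360 and 212 CPM and to 133 and 117 CPM. The 9 macrophage markers ranged from 2537 to 2861 CPM over the 4 libraries. Their part in the result was not tested.

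The starts of these 5 genes are shown because HIF is known to bind a short core, ACGTG or GCGTG, near its targets, and these members rose together in monocytes. Each sequence is the RefSeq promoter of build GRCm38.p6 from 250 bases before the start to the base before it, on the gene's strand, with letters of either core, on either strand, in capitals. The counts were aligned to another build, so genes were matched by symbol. The positions are chr12:54203875-54204124, minus strand, for Egln3, chr14:45318573-45318822, minus strand, for Ero1a, chr19:53329163-53329412, plus strand, for the second of 3 listed starts of Mxi1 (the first holds no match), chr6:82774455-82774704, minus strand, for Hk2 and chr12:73907617-73907866, plus strand, for Hif1a.
Egln3: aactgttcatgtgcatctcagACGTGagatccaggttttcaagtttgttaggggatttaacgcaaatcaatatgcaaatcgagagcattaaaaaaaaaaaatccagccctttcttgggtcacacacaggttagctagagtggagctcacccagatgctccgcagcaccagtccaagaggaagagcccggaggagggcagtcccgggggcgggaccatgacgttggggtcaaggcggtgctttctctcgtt
Ero1a: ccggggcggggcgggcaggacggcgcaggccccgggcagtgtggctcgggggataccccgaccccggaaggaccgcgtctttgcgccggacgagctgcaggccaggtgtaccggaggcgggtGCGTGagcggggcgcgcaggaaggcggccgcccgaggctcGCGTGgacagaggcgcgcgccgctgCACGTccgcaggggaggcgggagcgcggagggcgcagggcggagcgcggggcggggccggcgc
Mxi1: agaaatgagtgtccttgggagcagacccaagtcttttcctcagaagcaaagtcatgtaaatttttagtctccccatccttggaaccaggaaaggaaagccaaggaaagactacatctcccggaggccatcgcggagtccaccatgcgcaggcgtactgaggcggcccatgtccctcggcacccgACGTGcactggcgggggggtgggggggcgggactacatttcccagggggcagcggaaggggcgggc
Hk2: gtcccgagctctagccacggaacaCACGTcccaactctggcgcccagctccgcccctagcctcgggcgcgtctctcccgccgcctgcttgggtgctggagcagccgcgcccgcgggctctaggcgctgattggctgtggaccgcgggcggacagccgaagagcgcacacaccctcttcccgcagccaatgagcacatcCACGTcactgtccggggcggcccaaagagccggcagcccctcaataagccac
Hif1a: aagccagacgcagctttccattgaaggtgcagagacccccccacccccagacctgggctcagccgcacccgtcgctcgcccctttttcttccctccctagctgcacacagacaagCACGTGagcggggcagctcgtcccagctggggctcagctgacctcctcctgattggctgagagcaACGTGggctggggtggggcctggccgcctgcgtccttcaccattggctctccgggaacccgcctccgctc
The Egln3 stretch held 1 match, 229 bases before the start, Ero1a 3 matches, Mxi1 1, Hk2 2 and Hif1a 3, of which 2 overlap in the palindrome CACGTG. Of the 33 members, 31 were matched to RefSeq promoters of 300 bases (250 before and 50 after the start), and 29 of these (93.5%) held either core in at least 1 listed promoter. The share was 46.7% of all 27025 genes with a promoter and 65.0% of the 11350 genes with a promoter that were tested in macrophages. Counted by promoter window, it was 83.7% of the 49 member windows and 43.8% of all 32851 windows. Both cores contain a CG dinucleotide, and member promoters were richer in CG, with a median of 23 per window against 19 for the genes tested in macrophages and 7 for all windows. The 2 members without a match were Gpi1 and Tpi1. A match describes the letters and shows no binding.

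The treatment effect differed between macrophages and monocytes for 1 member. In edgeR's interaction test over both cell types, Mxi1 had a smaller effect in macrophages than in monocytes (log2 difference −0.96, SE 0.27, adjusted p = 0.0282; 0.694% of all 13967 genes were called lower). The fits per cell type had their own scaling, so the difference of their effects is not the interaction value. In those fits the effect on Mxi1 was 0.35 in macrophages, at 63.7, 92.0, 66.5 and 110 CPM, and 1.09 in monocytes. DESeq2 did not call it, and neither did edgeR without control replicate 1, control replicate 2 or LNP-Sirpa replicate 1. The other 32 members were not called, 0 of them higher (0.852% of all genes), and the median difference was −0.22 over members and −0.11 over all genes. Without LNP-Sirpa replicate 2, 4 members were called lower (Gapdh, Ankrd37, Egln3 and Mxi1, 0.358% of all genes in that fit). For Hif1a, whose effects were 1.38 and 1.29, the test gave no call, which does not show that the effects are alike.

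In the 8 other named cell types, between 23 and 31 members were tested per type and 0 were called by edgeR or DESeq2 (0.0% of all genes in neutrophils and in cDC1, 0.239% in NK, 0.254% in other CD4 T, 0.85% in mature dendritic, 0.903% in CD8 T, 1.05% in regulatory T and 1.07% in fibroblast-like cells), with 21 of 222 member tests at an unadjusted p under 0.05 in edgeR. The share of all genes at that unadjusted p is not given here, so the 21 show no shift particular to the members. Among phagocytes outside the main types, Hilpda rose in cells with both macrophage and monocyte markers (0.922% of all genes were called higher) by log2 1.17 (SE 0.26, adjusted p = 0.0320). Hif1a rose in low-marker phagocytes (1.71% of all genes were called higher) by log2 1.23 (SE 0.21, adjusted p = 0.0203). The Hilpda call was lost without control replicate 1, control replicate 2 or LNP-Sirpa replicate 1, and the Hif1a call without either control library. In low-marker phagocytes the 7 monocyte markers summed to 260, 217, 692 and 494 CPM, the 8 neutrophil markers to 184, 162, 329 and 232 CPM (Retnlg and Cxcr2 at 0 in control replicate 2) and the Arg1-Spp1 state genes to 6647, 6814, 9980 and 11067 CPM. In intermediate phagocytes the Arg1-Spp1 state genes summed to 3820, 3689, 6753 and 8660 CPM, and the part of these lists was not tested.

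The log2 fold change of Hif1a was 0.39 (SE 0.62) in neutrophils, 1.56 (SE 0.62) in cDC1, 0.53 (SE 0.35) in mature dendritic cells and 0.58 (SE 0.24) in CD8 T cells. It was 0.55 (SE 0.20) in regulatory T cells, 0.46 (SE 0.27) in other CD4 T cells, 0.96 (SE 0.36) in NK cells and 0.90 (SE 0.32) in fibroblast-like cells. None of these 8 passed the threshold, and all came from the same 4 libraries.

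**Figure D5:**
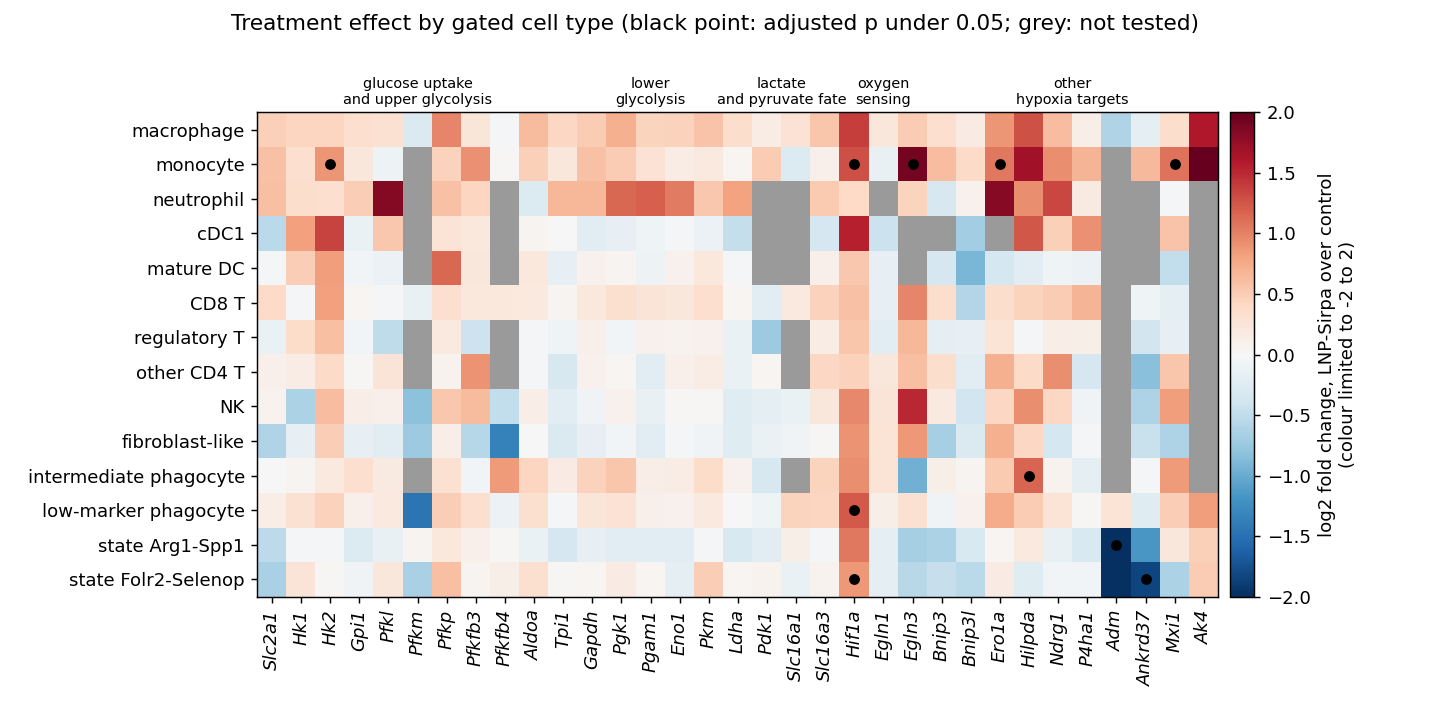
Rows are cell types and the 2 macrophage states, columns are members by role, and colour is the log2 fold change of LNP-Sirpa over control, limited to −2 to 2; grey marks members not tested and black points an adjusted p under 0.05. Of the 10 black points, 5 are in monocytes and 3 are in the Hif1a column.

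From cell to cell within macrophages, summed UMIs of the glycolytic members and of the hypoxia targets rose and fell together moderately. With cells thinned to 2000 UMIs each, Spearman's rho between the sums was 0.343, 0.370, 0.299 and 0.253, over 3853, 6023, 2611 and 3207 cells. The cells of a library share its preparation and the fixed depth. For each member against the sum of the other 32, Gapdh (0.463 to 0.537 over libraries) and Aldoa (0.422 to 0.552) had the highest values, while Pfkfb4 lay below 0 in all 4 libraries (−0.066 to −0.007). Hif1a, with a UMI in 9.24%, 11.7%, 24.3% and 19.7% of these cells, ranged from −0.014 to 0.107. Few UMIs per cell limit such values, and the part of a member's level in this order was not tested. These are descriptions, since cells are not replicates.

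Among 54 further genes of the pathway that are not members, 48 were tested in macrophages with treatment and 0 were called (0.0717% of all genes). In monocytes 37 were tested, with 3 higher (2.0% of all genes) and 1 lower (1.1%). Hk3, the hexokinase of myeloid cells, rose from 12.3 and 19.3 CPM to 102 and 87.8 CPM (log2 2.65, SE 0.38, adjusted p = 0.00141). Vegfa, the angiogenic growth factor induced by HIF, rose from 36.9 and 22.5 CPM to 82.8 and 80.9 CPM (log2 1.45, SE 0.34, adjusted p = 0.0253), and Mif, a macrophage cytokine, rose by log2 0.85 (adjusted p = 0.0317). Eno3, the muscle enolase, fell from 39.4 and 41.7 CPM to 3.35 and 6.51 CPM (log2 −3.05, SE 0.47, adjusted p = 0.002105). In the comparison of macrophage states 22 of 44 tested were higher in the Arg1-Spp1 state (18.2% of all genes) and 3 lower (16.3%). Vegfa was among the higher, at log2 2.41 (SE 0.13, adjusted p = 2.465e-11).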

How the data were processed

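The deposited matrices hold UMI counts per gene and cell, from DNBelab C droplet libraries of polyA RNA. Per the submitters' processing notes the authors used STAR 2.5.1b and GRCm39, and the file headers name PISA. Whether counting used strand is not given in the sources used here. The series lists 8 samples, of which the 4 cDNA libraries were used, and the oligo libraries were not analysed here. Cells with at least 500 UMIs, at least 300 genes and at most 15% mitochondrial UMIs were kept. Between 830 and 1242 barcode names were shared by each pair of libraries, with 0 identical profiles. Replicates differed by more than sampling noise, with chi-square per degree of freedom of 61.05 (control) and 90.73 (LNP-Sirpa).

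Types were gated on marker UMIs per 10000: macrophages needed at least 80 of their list and under 20 of the monocyte list, and monocytes at least 20 and under 60 of the macrophage list. Low-marker phagocytes had under 80 macrophage-list UMIs, and intermediate phagocytes held both lists. Arg1-Spp1 macrophages had at least 60 of their list and under 15 of the Folr2-Selenop list, and Folr2-Selenop macrophages at least 15 and under 30. Members and lists were chosen with earlier results of these data known, and thresholds were set on the data. Values per library are given for members past the threshold with treatment, for up to 3 members per role with the largest change and a mean of at least 20 CPM in macrophages and monocytes, and for up to 5 highest and 5 lowest in comparisons between types. Pdk1, Egln1, Ak4, Pfkm, Ndrg1 and others outside that rule were added after their values were seen.

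Counts were summed per library and type (at least 20 cells each) and tested with edgeR 4.0.16 (TMM, filterByExpr, robust quasi-likelihood F test) in R 4.3.3. The Benjamini-Hochberg adjustment covered all genes tested, with a threshold of 0.05. Standard errors are the absolute log2 change over the root of F. Treatment fits compared 2 with 2 libraries, and comparisons between types had the library as a block. Alternatives included DESeq2 1.42.0, other scaling, no filter, other gates, thinning to 2000 UMIs per cell and leaving out each library. On simulated counts, 33% of genes changed by log2 1 and 100% by log2 2 were recovered in macrophages, and 32% and 93% in monocytes. Intervals cover counting error only.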

Additional observations from a re-analysis of the deposited data

Results flagged for a closer look

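The treatment effect on Mxi1, an antagonist of MYC, differed between macrophages and monocytes by a log2 value of −0.96 in the interaction test of edgeR (adjusted p = 0.0282). The call was lost in 10 of 14 alternatives, DESeq2 among them.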

How the results depend on the processing

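No member called with treatment in macrophages or monocytes changed sign in an alternative, but 17 of 33 members in macrophages and 6 of 31 in monocytes, none called, did so in at least 1 of 15. Among them were Gapdh, Slc2a1 and Ldha in macrophages without LNP-Sirpa replicate 2 and Egln1 in monocytes. Of 120 values of named genes with 1 library left out, 40 lost their call, as did 65 of 301 under other settings. Member counts below set the value with all libraries against the alternative. The share of all genes called in each of those fits is not given beside them, so they show no change particular to the members. With 1 library left out, the treatment counts ranged from 0 to 15 higher (0 with all) and 0 to 1 lower (0) in macrophages and from 3 to 6 higher (5) in monocytes. They ranged from 0 to 1 higher (0) and 0 to 2 lower (1) in Arg1-Spp1, and 0 to 1 higher (1) and 0 to 1 lower (1) in Folr2-Selenop macrophages. In the other types they ranged from 1 to 18 higher (2) and 0 to 9 lower (0), and for the interaction from 0 to 4 lower (1). Counts above or below were 0 to 2 higher (1) for macrophages against monocytes, 3 to 7 higher (7) and 0 to 4 lower (2) for neutrophils, 1 to 5 higher (5) for CD8 T, 1 to 2 higher (2) for NK and 0 to 1 lower (1) for the macrophage states.

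DESeq2 gave 3 higher in macrophages with treatment, 3 in monocytes, 1 in Arg1-Spp1 and 0 higher and 0 lower in Folr2-Selenop macrophages, and 0 lower for the interaction. It gave 0 higher in macrophages against monocytes, 1 lower in neutrophils, 3 higher in CD8 T, 1 higher in NK and 0 lower for the states. DESeq2 size factors gave 0 lower for the interaction. Library sizes gave 1 higher in macrophages, 2 lower for the interaction and 2 higher for macrophages against monocytes. No filter gave 5 higher in macrophages, 8 in monocytes, 1 in Arg1-Spp1 macrophages, 6 higher and 1 lower in the other types, 0 lower for the interaction, 4 higher and 5 lower in neutrophils and 1 higher in NK. In those fits the treatment calls over all genes rose from 11 to 1652 in macrophages and from 257 to 557 in monocytes. Thinning gave 1 higher in macrophages, 2 in monocytes, 1 in the other types, 0 and 0 in Folr2-Selenop macrophages, 0 lower for the interaction and 0 higher in NK. Stricter gates gave 0 lower in Arg1-Spp1 macrophages, 2 lower for the interaction, 2 higher for macrophages against monocytes and 1 higher in the other types. Without cycling cells there were 5 lower for the interaction, 2 higher for macrophages against monocytes, 4 higher and 1 lower in neutrophils, 2 higher in CD8 T, 1 in NK and 1 in the other types. Without the cells of highest UMI count there were 2 higher for macrophages against monocytes, 1 in NK, 1 in the other types and 0 lower for the states.

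Without Arg1 in the state list there were 0 lower in Arg1-Spp1 and 0 higher and 0 lower in Folr2-Selenop macrophages with treatment. A monocyte gate without Ly6c2 and Ms4a4c gave 2 higher for macrophages against monocytes. Control libraries alone gave 0 higher and 7 lower for macrophages against monocytes, 0 and 0 for neutrophils, 5 higher in NK and 0 lower for the states, and LNP-Sirpa libraries alone gave 9 lower for macrophages against monocytes, 2 higher in CD8 T, 0 in NK and 0 lower for the states. Library sizes, the Arg1 setting and the low-marker and intermediate phagocytes were added after the data were seen. The cause was not tested.

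Same-numbered replicates did not deviate together (correlation 0.0509 in macrophages, −0.0117 in monocytes). With the replicate number as a block, 4 members were higher in macrophages, 0 lower in Arg1-Spp1, 0 higher in Folr2-Selenop macrophages and 4 higher in the other types.

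Over all genes, the calls for treatment ranged from 1 to 1652 in macrophages (11 with all libraries and settings as reported) and from 107 to 557 in monocytes (257). They ranged from 10 to 600 in Arg1-Spp1 (56) and 2 to 658 in Folr2-Selenop macrophages (388), and from 43 to 217 for the interaction (216). They ranged from 0 to 191 in neutrophils (0), 0 to 1024 in cDC1 (0), 0 to 454 in mature dendritic cells (49), 35 to 495 in CD8 T (95), 32 to 212 in regulatory T (81), 3 to 89 in other CD4 T (16) and 0 to 871 in NK cells (23). They ranged from 67 to 785 in fibroblast-like cells (102), 42 to 283 in intermediate (101) and 170 to 1101 in low-marker phagocytes (277). Between types they ranged from 1276 to 3015 against monocytes (2540), 49 to 3366 for neutrophils (2775), 3580 to 6519 for NK (6117) and 1381 to 5450 for the states (3811).

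With library sizes the median of all genes moved by −0.14 in macrophages, −0.27 in neutrophils, 0.19 in cDC1 and 0.14 in mature dendritic cells with treatment, and by 0.13 for macrophages against monocytes. With DESeq2 it moved by 0.12 for the interaction and 0.16 for neutrophils against macrophages, and with its size factors by 0.11 for the latter. The share of higher calls moved from 81.8% to 64.8% (library sizes) or 100.0% (size factors) in macrophages. It moved from 71.4% to 89.2% in mature dendritic cells, from 75.1% to 62.9% in low-marker phagocytes and from 52.2% to 68.9% against monocytes (library sizes). It moved from 55.1% to 88.0% (DESeq2) or 66.7% (size factors) for the interaction and from 42.7% to 54.7% for neutrophils (DESeq2). Small control groups of monocytes and neutrophils limit the depth behind their values.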
